A study of Mus musculus with 12 samples.

Results

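The insulin-like growth factor (IGF) axis was examined in wild-type mouse hand and foot plates (autopods) of stage E12.5, through 9 genes: the ligand gene Igf1, its receptor gene Igf1r, the binding protein genes Igfbp2, Igfbp3, Igfbp4, Igfbp5 and Igfbp7, and the protease genes Pappa and Htra1. Members were all probe sets whose annotation names 1 gene only and that gene is one of the 9, out of 18194 genes named in this way. They came to 28 of the 45137 probe sets, controls aside, on the pair of Affymetrix MOE430 array designs. The A design held 21 of them, covering all 9 genes, and the B design held 7, covering Igf1, Igf1r, Igfbp3 and Pappa. No probe set annotated to several genes named a member. The genes were chosen by their place in the pathway with the hindlimb minus forelimb values of these same arrays already known, so the limb differences of members are given below as a description. Counts of members past limma's thresholds stand once beside the shares over all probe sets, and neither supports anything by itself.

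RNA came from wild-type embryos, from 3 samples of forelimb autopod (numbers 11, 13 and 25) and 3 of hindlimb autopod (numbers 12, 14 and 26), and each sample was put on an A and a B array. For sample 11 on the A array the tissue label names no limb, and it stands with the forelimb by its title alone. No label says whether a sample is 1 embryo or a pool. Signals are MAS5.0 values, here scaled so that the trimmed mean of each array is 500, and a difference is the hindlimb mean less the forelimb mean of log2(signal + 32), so changes of dim probe sets come out too small. A probe set was carried into the fit where its signal reached 100 on at least 3 of the 6 arrays of its design. Signals of different probe sets are not on 1 scale and are not set against each other, nor are A and B signals. Between 65.5% and 68.1% of an A array's probe sets, and between 72.7% and 75.5% of a B array's, reached a signal of 100.

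Genes known to mark the limbs went with the labels. Tbx5, a forelimb factor, had 474.0, 479.1 and 554.6 in forelimb 11, 13 and 25 on 1425694_at, and 8.0, 13.9 and 9.4 in hindlimb 12, 14 and 26. Pitx1, a hindlimb factor, had 99.0 to 159.8 in forelimb samples on 1449488_at and 478.0 to 678.1 in hindlimb samples. Hindlimb 14 stood apart on the other Tbx5 probe set, 1425695_at, at 173.8 where hindlimb 12 and 26 had 29.3 and 29.7 and the forelimb at least 1145.1; values without this sample are given below where it moves a result.

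IGF ligands act through the IGF type 1 receptor, a tyrosine kinase that drives growth and survival of embryonic tissue. In the matrix and in fluids most IGF is held by binding proteins, which can shield it or keep it near its receptor, and proteases that cut the binding proteins set it free. In the limb the axis is known for its part in cartilage and skeletal growth.

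Of the 28 member probe sets 25 passed the signal filter, 18 of 21 on the A array and all 7 on the B array, and each of the 9 genes kept at least 1. Below the filter lay 1452108_at of Igf1r, where forelimb signals ran from 73.3 to 83.8 and hindlimb signals from 56.6 to 74.0. The other two were probe sets of Igfbp7: 1423585_at (forelimb 4.7 to 16.4, hindlimb 5.7 to 25.7) and 1437804_at (forelimb 27.0 to 37.3, hindlimb 38.7 to 40.7, the samples parted at a level too dim to test). On the A array 15 of the 18 tested differences were negative, with a median of -0.23, where over all 15338 tested probe sets the median was -0.01 and 52.2% were negative. Among the 7 of the B array 6 were negative, with a median of -0.10, against -0.01 and 52.2% over 17145 probe sets. Several of these probe sets measure 1 gene, and all come from the same RNA, so these counts are not independent.

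**Figure D1:**
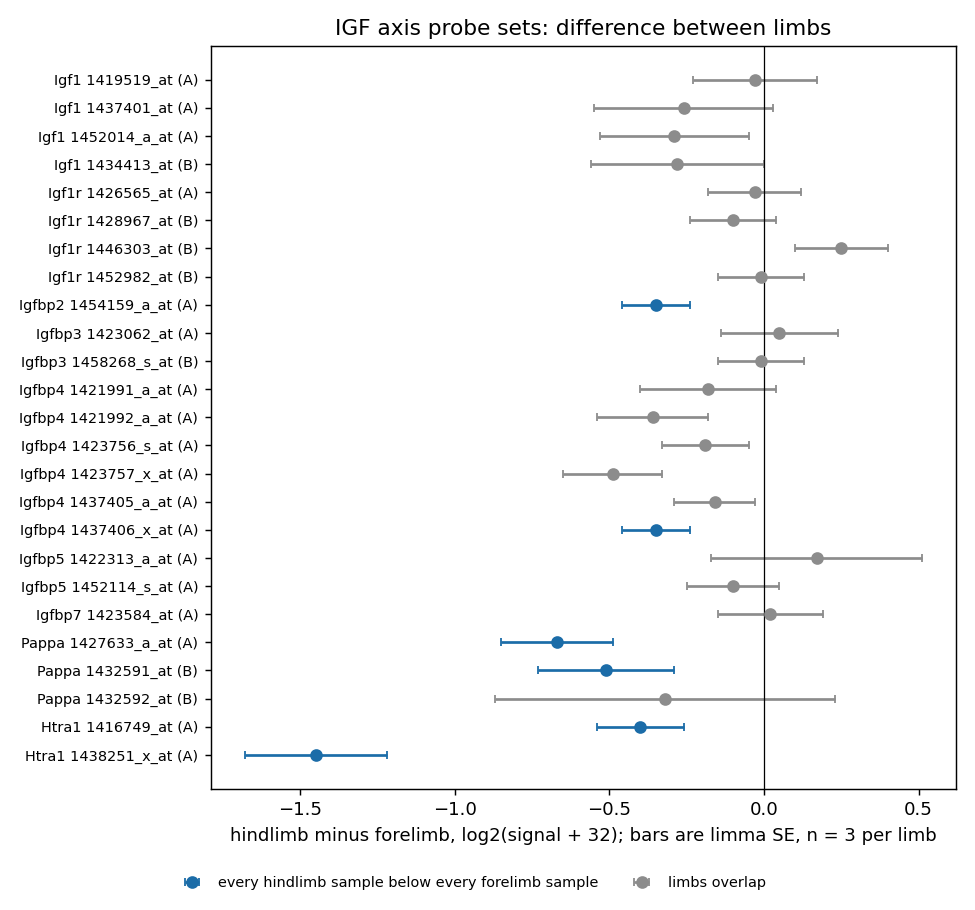
Each point is the hindlimb minus forelimb difference of 1 tested member probe set, in log2(signal + 32) units, with limma's standard error as the bar (n = 3 samples per limb); the letter in brackets is the array design. The 6 blue points, where every hindlimb sample lay below every forelimb sample, belong to Igfbp2, Igfbp4, Pappa and Htra1, and the lowest is Htra1 1438251_x_at at -1.45. Only the forelimb arrays brought that probe set over the signal filter, so its direction was fixed by the filter.

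The limbs parted on 6 tested member probe sets, each time with the hindlimb below. On the A array these were 5 of 18, where 6.10% of all tested probe sets had every hindlimb sample below every forelimb sample, and 0 of 18 had it above, against 4.94%. The 5 include Htra1 1438251_x_at, whose direction the signal filter fixed, and Pappa 1427633_a_at, which passed the filter through its forelimb signals. For the B array 1 of 7 lay below and 0 above, where the shares over all probe sets were 6.14% and 4.81%. In limma, 0 of the 18 and 0 of the 7 had an adjusted p under 0.05, where 0.0326% (5 probe sets) and 0.0117% (2) of all tested did. At an unadjusted p under 0.05 there were 6 of the 18 and 1 of the 7, against 5.54% of all tested probe sets of either design. Since this contrast was known when the genes were chosen, nothing is read from these counts.

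On the protease genes Htra1 and Pappa the limbs parted on 4 of 5 probe sets, with the hindlimb below. Over all tested probe sets the hindlimb lay below on 6.10% (A array) and 6.14% (B array). Among these, Htra1 1438251_x_at and Pappa 1427633_a_at passed the signal filter through their forelimb signals, as given below. Htra1 encodes a secreted serine protease that carries an IGFBP-like domain at its N-terminus and is known to cut matrix proteins and binding proteins. On its brighter probe set, 1416749_at, the signals were 282.2, 284.2 and 274.8 in forelimb 11, 13 and 25, and 223.4, 197.1 and 193.7 in hindlimb 12, 14 and 26. The forelimb samples lay close together and all above the hindlimb, with a difference of -0.40 ± 0.14 (SE). On 1438251_x_at they were 114.3, 175.1 and 156.0 in forelimb and 48.8, 29.4 and 23.9 in hindlimb, again with no overlap. That difference was -1.45 ± 0.23 with the pseudocount of 32, a size that depends on this choice, from -2.13 with a pseudocount of 1 to -0.89 with 100.

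Only the forelimb arrays brought 1438251_x_at over the signal filter, so it could be carried into the fit only as a probe set lower in hindlimb, and its direction adds nothing to that of 1416749_at. Its hindlimb signals were all below 100, with 2 below the pseudocount of 32, so the sizes of the Htra1 differences are not set against each other. The ending x_at is Affymetrix's mark for a probe set whose probes may bind other transcripts too.

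Pappa encodes pregnancy-associated plasma protein A, a secreted metalloprotease that cuts IGFBP4 and IGFBP5. Probe set 1427633_a_at of the A array had 191.1, 181.4 and 177.7 in forelimb 11, 13 and 25, and 131.5, 93.3 and 89.0 in hindlimb 12, 14 and 26. Every hindlimb sample lay below the forelimb, with hindlimb 12 nearest to it, and the difference was -0.67 ± 0.18 (hindlimb at 62.9% of forelimb). The forelimb arrays and hindlimb 12 reached the filter signal of 100, and hindlimb 14 and 26 did not. The forelimb signals thus carried this probe set over the filter, which limits what its direction shows. The B array probe set 1432591_at had 504.2, 345.7 and 403.5 in forelimb and 320.7, 254.3 and 272.1 in hindlimb, a difference of -0.51 ± 0.22 with no overlap.

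The remaining Pappa probe set, 1432592_at of the B array, spread more within a limb than between limbs. Its signals were 102.8, 191.4 and 337.8 in forelimb 11, 13 and 25, and 45.7, 165.7 and 337.8 in hindlimb 12, 14 and 26. The limbs overlapped and the difference of -0.32 ± 0.55 was smaller than its error; without hindlimb 12 it was 0.28. All 3 Pappa probe sets were thus negative over all samples, and the limbs parted on 2 of them, 1 on each design.

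**Figure D2:**
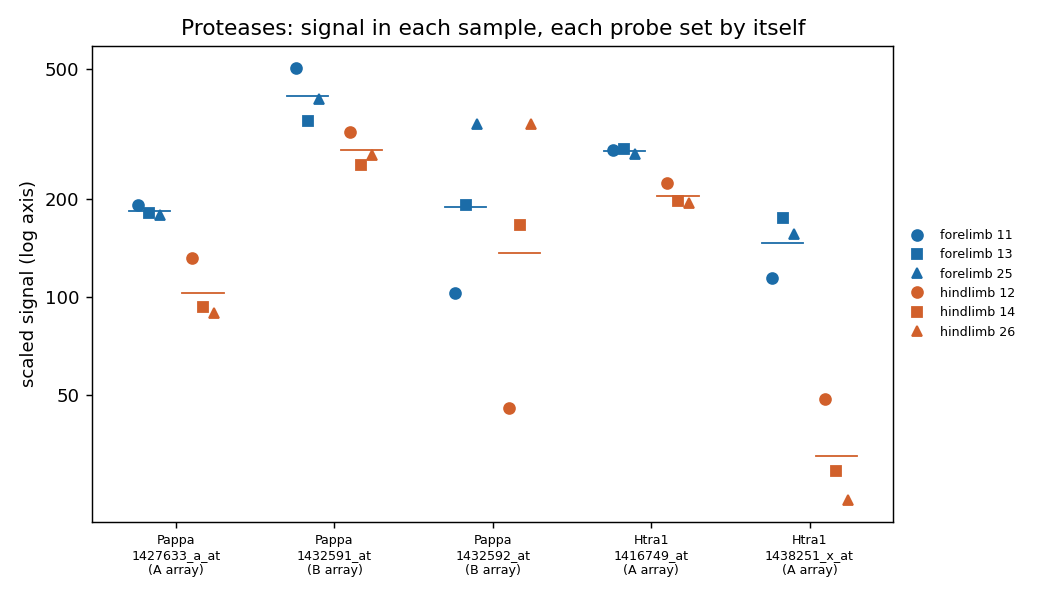
Scaled signal (log axis) of each Pappa and Htra1 probe set in each sample, forelimb in blue and hindlimb in orange; the horizontal lines are geometric means of 3 samples, and levels are comparable only within a probe set. The limbs part on 4 of the 5 probe sets and overlap on Pappa 1432592_at, where forelimb 25 and hindlimb 26 both stand at 337.8.

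Igfbp2 encodes a binding protein that is widespread in embryonic tissue. Its single probe set, 1454159_a_at, had 2594.8, 2136.4 and 2350.0 in forelimb 11, 13 and 25, and 1819.4, 1942.4 and 1765.6 in hindlimb 12, 14 and 26. All hindlimb values were lower, with a difference of -0.35 ± 0.11 (hindlimb at 78.5% of forelimb), and the difference lay between -0.42 and -0.28 when each sample was left out. Igfbp2 has no second probe set on either design, so no agreement could be examined.

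Igfbp4 encodes the binding protein that is the best known substrate of pregnancy-associated plasma protein A. It had 6 probe sets on the A array, and all 6 differences were negative, from -0.49 ± 0.16 on 1423757_x_at to -0.16 ± 0.13 on 1437405_a_at. The limbs parted on 1437406_x_at alone, with 5445.6, 6907.9 and 6441.7 in forelimb 11, 13 and 25, and 4774.8, 5200.0 and 4718.1 in hindlimb 12, 14 and 26 (-0.35 ± 0.11). On the brightest, 1437405_a_at, the values were 6225.3, 8106.1 and 7722.2 in forelimb and 6579.1, 7526.0 and 5577.5 in hindlimb, with the limbs overlapping. Both 1423757_x_at and 1437406_x_at carry the ending x_at, so their probes may bind other transcripts too.

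Hindlimb 14 was the highest hindlimb sample on all 6 Igfbp4 probe sets, and on 1421991_a_at it stood above the forelimb too (628.8, with 437.6 to 544.1 in forelimb and 315.8 and 361.3 in hindlimb 12 and 26). Without hindlimb 14 the difference of 1423757_x_at went from -0.49 to -0.69, that of 1421992_a_at from -0.36 ± 0.18 to -0.58, that of 1423756_s_at from -0.19 ± 0.14 to -0.35, and that of 1421991_a_at from -0.18 ± 0.22 to -0.46. Leaving out another sample moved some the other way: without hindlimb 12 the difference of 1421991_a_at was 0.00 and that of 1423756_s_at -0.09. For 1437405_a_at it lay between -0.05 without hindlimb 26 and -0.28 without forelimb 11. Over the 18 tested member probe sets of the A array hindlimb 14 was the highest of its limb 12 times, where it was so on 37.9% of all tested probe sets. Among B array probe sets, none of them Igfbp4, it was the highest on 1 of 7. In the forelimb, sample 11 was the lowest on 5 of the 6 Igfbp4 probe sets.

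Of the 15 pairs of Igfbp4 probe sets, the limbs overlapped on the log2 ratio of 13 and parted on 2, both among the 5 pairs that hold 1423757_x_at. The log2 ratio of that probe set to 1423756_s_at was -0.88 to -0.49 in forelimb and -1.07 to -0.88 in hindlimb. Their order was kept on unrounded values, by a narrow margin. The ratio of 1421991_a_at to 1423757_x_at was -2.96 to -2.79 in forelimb and -2.74 to -2.41 in hindlimb, also without overlap. These ratios had no test, and the share of parted pairs over all genes was not computed.

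**Figure D3:**
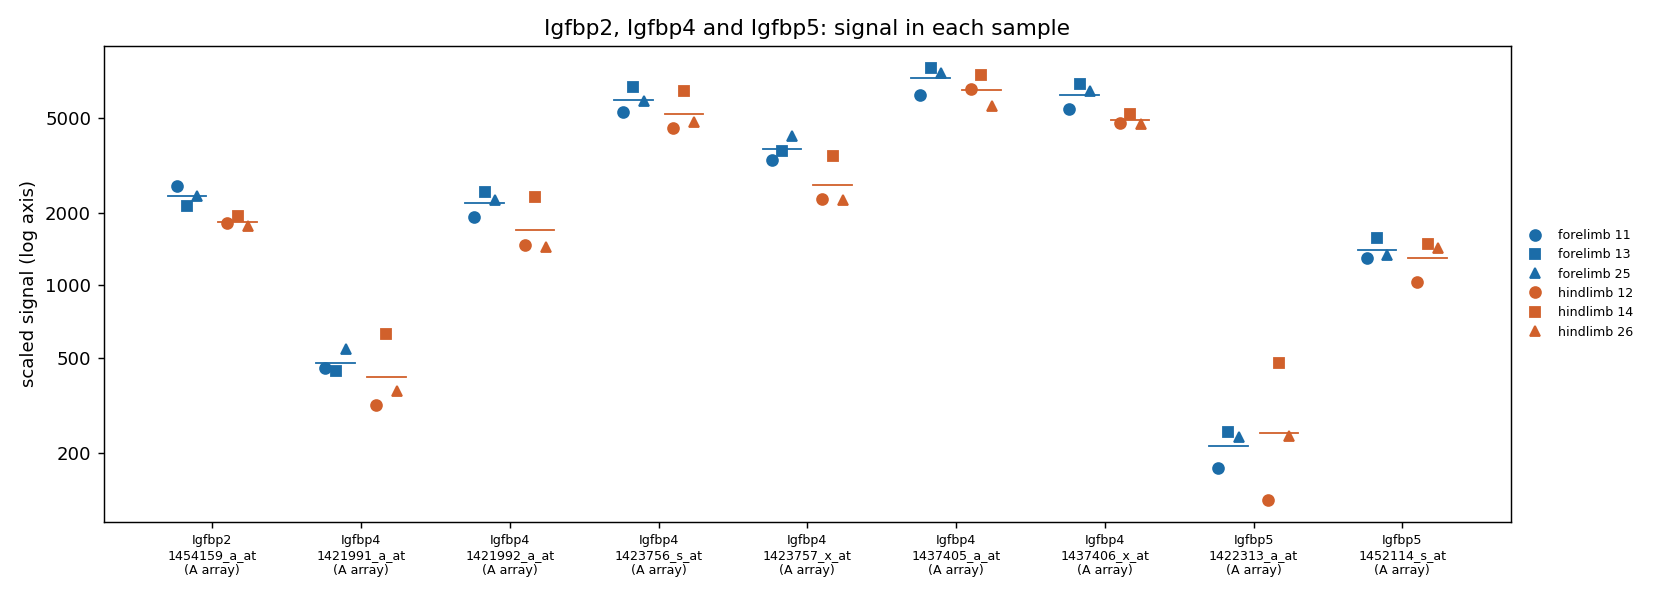
Scaled signal (log axis) of the Igfbp2, Igfbp4 and Igfbp5 probe sets of the A array in each sample, forelimb in blue and hindlimb in orange, with geometric means of 3 samples as lines; levels are comparable only within a probe set. The square for hindlimb 14 is the highest hindlimb point on all 6 Igfbp4 probe sets, and on Igfbp5 1422313_a_at it stands at 476.4 above every other sample.

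Igfbp5 encodes a matrix-bound binding protein, a substrate of both proteases. Its 2 probe sets went opposite ways, each with a difference smaller than its error. On 1452114_s_at the signals were 1305.2, 1572.4 and 1335.0 in forelimb 11, 13 and 25, and 1037.4, 1486.7 and 1436.4 in hindlimb 12, 14 and 26 (-0.10 ± 0.15). On the dimmer 1422313_a_at they were 173.2, 245.4 and 232.8 in forelimb and 127.4, 476.4 and 234.5 in hindlimb (0.17 ± 0.34). Here too hindlimb 14 was highest and hindlimb 12 lowest, and the difference ran from -0.26 without hindlimb 14 to 0.58 without hindlimb 12.

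Igfbp3, known as the main carrier of IGF in serum, lay near 0 on both designs. On the A array 1423062_at had 230.9 to 323.5 in forelimb and 226.4 to 361.6 in hindlimb (0.05 ± 0.19), and on the B array 1458268_s_at had 1194.9 to 1317.7 and 1105.6 to 1350.5 (-0.01 ± 0.14). Igfbp7, a binding protein of low affinity for IGF, had 195.5 to 229.1 in forelimb and 171.1 to 244.1 in hindlimb on 1423584_at (0.02 ± 0.17). Limb samples overlapped on all 3 of these probe sets.

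The ligand Igf1 varied more among samples than between limbs. The probe sets 1437401_at of the A array and 1434413_at of the B array ranked the samples alike at the extremes. On the first the signals were 350.9, 210.8 and 185.5 in forelimb 11, 13 and 25, and 201.2, 299.3 and 120.0 in hindlimb 12, 14 and 26. On the other they were 972.0, 543.5 and 642.8, and 664.2, 750.6 and 367.8. On both, forelimb 11 was highest, hindlimb 14 next and hindlimb 26 lowest, and the limb differences were -0.26 ± 0.29 and -0.28 ± 0.28.

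The other two Igf1 probe sets did not follow that order. On 1419519_at forelimb 25 (205.7) and hindlimb 26 (197.2) were highest and hindlimb 14 (122.8) lowest, with a difference of -0.03 ± 0.20. On 1452014_a_at forelimb 11 was highest (172.4) and hindlimb 14 lowest (70.7), with a difference of -0.29 ± 0.24. Without hindlimb 26 the differences of 1437401_at and 1434413_at were 0.03 and 0.01, and without forelimb 11 they were -0.02 and -0.05, so their size rests on these samples. That of 1452014_a_at was -0.11 without forelimb 11 and -0.12 without hindlimb 14.

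**Figure D4:**
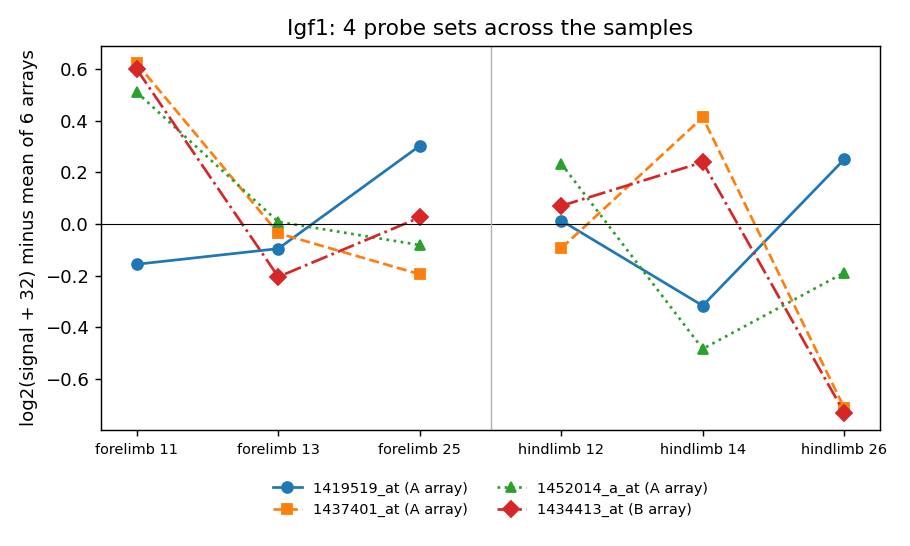
Each line is 1 Igf1 probe set, plotted for each sample as log2(signal + 32) minus its own mean over the 6 arrays of its design, so levels are centred; the lines break between the limbs. The A array probe set 1437401_at and the B array probe set 1434413_at are both highest in forelimb 11 and lowest in hindlimb 26, while 1419519_at is lowest in hindlimb 14.

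The receptor Igf1r had 4 tested probe sets, and the limbs overlapped on each. On the A array 1426565_at had 668.2, 647.7 and 770.9 in forelimb 11, 13 and 25, and 569.0, 739.3 and 747.8 in hindlimb 12, 14 and 26 (-0.03 ± 0.15). Of the B array probe sets 1452982_at had 6454.8 to 8728.2 in forelimb samples and 6759.8 to 7515.5 in hindlimb samples (-0.01 ± 0.14), and 1428967_at had 1575.5 to 1912.6 and 1421.9 to 1849.0 (-0.10 ± 0.14). The exception in sign was 1446303_at with 1178.4 to 1424.8 in forelimb and 1324.1 to 1830.5 in hindlimb (0.25 ± 0.15).

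Promoter sequences are shown for the members with a probe set on which the limbs parted, as far as the RefSeq table of GRCm38.p6 holds them; Pappa was not matched. Of the 9 member genes 8 matched, with 9 entries, since Igfbp2 has 2 starts. Each run below is the 150 bases before the start, 5′ to 3′ on the gene's strand, and capitals mark matches to 4 motifs searched on both strands: the GC box GGGCGG, the TATA box TATAAA, the T-box site TCACACC and the bicoid-type site TAATCC known for Pitx factors. Each run shown holds matches to at most 1 of the motifs, and a match on the other strand appears as its reverse complement. The Htra1 run lies at chr7:130936053-130936202 (plus strand), those of Igfbp2 at chr1:72824330-72824479 and chr1:72825237-72825386 (plus strand), and that of Igfbp4 at chr11:99041094-99041243 (plus strand).
Htra1: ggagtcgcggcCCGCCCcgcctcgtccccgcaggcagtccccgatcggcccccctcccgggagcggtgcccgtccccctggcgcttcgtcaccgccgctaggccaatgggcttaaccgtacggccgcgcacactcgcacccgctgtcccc
Igfbp2, first start: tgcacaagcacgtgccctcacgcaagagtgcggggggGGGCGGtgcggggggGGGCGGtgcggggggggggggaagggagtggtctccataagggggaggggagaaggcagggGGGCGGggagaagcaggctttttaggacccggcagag
Igfbp2, second start: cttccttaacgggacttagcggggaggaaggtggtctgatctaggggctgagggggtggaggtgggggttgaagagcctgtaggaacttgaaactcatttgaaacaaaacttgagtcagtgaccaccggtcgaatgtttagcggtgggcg
Igfbp4: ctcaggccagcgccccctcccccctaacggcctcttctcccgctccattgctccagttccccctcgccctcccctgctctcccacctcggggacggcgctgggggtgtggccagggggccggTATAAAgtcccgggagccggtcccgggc

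The GC box was found in 4 of the 9 member promoters (Htra1, Igfbp7, Igf1r and the first start of Igfbp2, which held 3 matches), against 28.6% of all 32851 promoters. A TATA box was found in 1, that of Igfbp4, against 7.6%. Neither the T-box site (1.9% of all promoters) nor the bicoid-type site (3.6%) was found in these 9 windows, which says only that those letters are not there. The Htra1 run is 76.7% G and C, where all promoters together are 54.8%. This is not particular to Htra1, since Igf1r and Igfbp3 had 78.7% and Igfbp7 78.0%. Igfbp4 had 73.3%, the first start of Igfbp2 72.0% and Igfbp5 55.3%. The lowest were Igf1 and the second start of Igfbp2, at 54.0%. These matches are descriptions of sequence and not of binding.

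Genes whose signals ran most like those of a member over the 6 A arrays were named for Htra1, Pappa and Igfbp4, whose most different probe sets (-1.45, -0.67 and -0.49) exceed those of the other members in size. Likeness was taken to the brightest A array probe set of each, which for Igfbp4 had a difference of -0.16 only. For Htra1 1416749_at the highest Pearson r belonged to Txndc17 (0.994), Pappa (0.991), Id4 (0.986), Rusc1 (0.985) and Rnf103 (0.984). For Pappa 1427633_a_at they were Htra1 (0.991), Olfml2b (0.986), Gdf5 (0.985), Col11a2 (0.985) and Csgalnact1 (0.984). On these A array probe sets both proteases were lowest in hindlimb 26 and highest of the hindlimb in sample 12. The B array probe sets of Pappa did not keep this order. There 1432591_at was lowest in hindlimb 14 (254.3) and 1432592_at in hindlimb 12 (45.7). For Igfbp4 1437405_a_at they were Pcnx4 (0.993), Stat3 (0.989), Nrarp (0.986), Sh3gl3 (0.985) and Ttc7b (0.985). In all, 47, 48 and 38 of 15338 probe sets reached 0.95 or more with the respective member. The 6 arrays fall into the limb groups, which any such r reflects in part, and it is given as a description.

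Beyond the members, a list of 59 further genes of the pathway was fixed by function. On the A array 61 probe sets of 35 of these genes were tested and 0 had an adjusted p under 0.05 in limma, while 6 had an unadjusted p under 0.05, where 5.54% of all tested probe sets did. Their median difference was -0.11, with 41 of 61 negative, where 52.2% of all tested probe sets were. Among B array probe sets 0 of 26, from 19 genes, passed, 0 had an unadjusted p under 0.05, and the median was 0.03. There 12 of 26 were negative, where 52.2% of all tested probe sets were. No further pathway gene was thus called between the limbs at this threshold, which does not show that their levels were equal.

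Among the ligands and receptors, Igf2, the main fetal IGF ligand, had mean signals of 7867.8 in forelimb and 6959.2 in hindlimb on 1448152_at (-0.19 ± 0.13, limma adjusted p = 0.955). Its other probe set on the A array, 1415931_at, gave -0.23 ± 0.19. Igf2r, which clears IGF2, had -0.17 ± 0.16 and 0.04 ± 0.14 on its 2 probe sets, and the insulin receptor Insr had -0.18 ± 0.20 (A array) and 0.15 ± 0.14 (B array). Of the other binding proteins only Igfbp6 was above the filter (-0.21 ± 0.20, limma adjusted p = 0.972); Igfbp1, Igfals and Igfbpl1 lay below it. 

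Genes with an IGFBP-like domain, the domain Htra1 shares, had the lowest median of the 6 groups on the A array, -0.34, with all 7 tested probe sets negative (52.2% of all tested were) and the hindlimb below on 4 (6.10% of all tested). The cellular communication network gene Ccn2 had 341.8 to 472.9 in forelimb and 202.8 to 272.6 in hindlimb (-0.64 ± 0.16, limma adjusted p = 0.496). Ccn4 had 157.2 to 205.9 and 86.7 to 135.7 (-0.59 ± 0.19, limma adjusted p = 0.633), and Ccn1 had 485.3 to 539.4 and 376.0 to 424.3 on 1416039_x_at (-0.34 ± 0.13, limma adjusted p = 0.765). On the other A array probe set of Ccn1, 1438133_a_at, the limbs overlapped (-0.43 ± 0.21). None passed. Crim1 had its limbs parted too (-0.33 ± 0.21), with 380.3 to 395.3 in forelimb samples and 362.7, 199.2 and 378.2 in hindlimb 12, 14 and 26, so that most of its difference lay in sample 14. From the B array 2 Ccn1 probe sets gave 0.13 and -0.01, and Ccn6 gave -0.04 ± 0.22. Htra3, the closest relative of Htra1 on the list, had -0.07 ± 0.17 on 1431762_at.

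Other proteases and inhibitors had a median of 0.01 on the A array (8 probe sets, 3 negative). Pappa2, a relative of Pappa that cuts IGFBP5, was on the B array, with 446.4 to 509.9 in forelimb and 297.8 to 410.7 in hindlimb (-0.36 ± 0.20, limma adjusted p = 0.904). Its limbs parted with the hindlimb below, as on Pappa 1432591_at, but it did not pass. Of the stanniocalcins, inhibitors of PAPP-A, Stc1 had mean signals of 257.0 in forelimb and 254.4 in hindlimb on 1450448_at of the A array, and Stc2 gave -0.28 ± 0.23 on the B array. Adam9 had 0.12 ± 0.12 and Adamts1 0.17 ± 0.14. Mmp14 had -0.20 ± 0.17 on 1416572_at and -0.12 ± 0.12 on 1448383_at of the A array, but 0.12 ± 0.23 on the B array.

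Signalling genes downstream of the receptor had medians of -0.09 over 32 probe sets of the A array and 0.04 over 14 of the B array. Those of smallest p on the A array were Pdpk1 (0.40 ± 0.15 on 1416501_at, limma adjusted p = 0.765), Gab1 (-0.35 ± 0.14, 0.805) and Mtor (-0.49 ± 0.21, 0.877). For the B array they were Mtor (0.95 ± 0.51 on the dim 1446185_at), Pik3r1 (-0.35 ± 0.23) and Akt2 (-0.22 ± 0.19). Only the hindlimb arrays brought 1446185_at over the signal filter, so it could be carried into the fit only as higher in hindlimb. Its sign is therefore not set against that of the A array. A further Mtor probe set on the A array, 1417592_at, gave 0.05 ± 0.16. Pdpk1 also had 1415729_at, present in both designs, with -0.03 ± 0.17 (A array) and -0.05 ± 0.12 (B array). The last group was listed as RNA regulators, although Plagl1 encodes a transcription factor. Its probe sets of smallest p gave Plagl1 -0.13 ± 0.12 (A array) and -0.32 ± 0.24 (B array). Igf2bp3 had 0.21 ± 0.20 on 1453957_a_at (A array) and 0.11 ± 0.12 (B array). Further Igf2bp3 probe sets gave 0.01, -0.04 and 0.04 (A array) and 0.03 (B array). Igf2bp1 had -0.20 ± 0.21 (A array) and 0.20 ± 0.18 (B array). Its further probe sets gave 0.02 (A array) and -0.18 (B array).

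**Figure D5:**
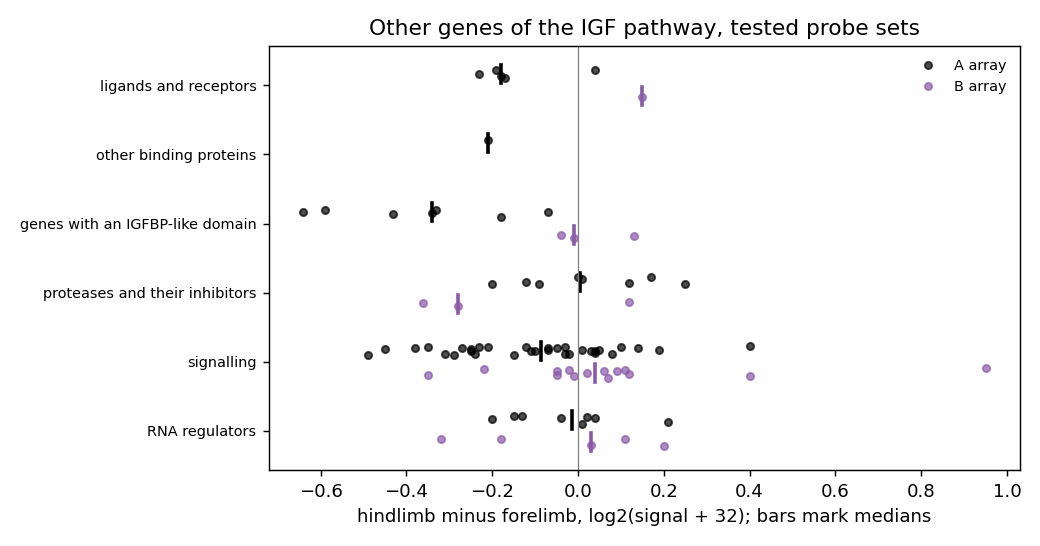
Each point is the hindlimb minus forelimb difference of 1 tested probe set of the further pathway genes, in log2(signal + 32) units, black for the A array and purple for the B array, by group; the bars mark medians and the vertical scatter is only for legibility. The median of genes with an IGFBP-like domain is -0.34 for A and -0.01 for B.

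Markers of the tissues in the autopod were read beside these values on the A array, by the brightest probe set of each gene. No tissue marker had an adjusted p under 0.05 in limma, and counts of parted genes below stand against 6.10% (hindlimb below) and 4.94% (above) of all tested probe sets. A summed signal is weighted to the brightest genes of its list and is given only to show its range in each limb. Limb mesenchyme genes, which define the labelled tissue, were all above the filter, with sums from 9567.2 to 10339.1 (forelimb) and from 8047.0 to 10410.0 (hindlimb), and 0 of 5 parted the limbs. Of the joint markers 2 of 3 tested had the hindlimb below (Gdf5, -0.60 ± 0.15, and Osr1, -0.84 ± 0.18) while Osr2 overlapped (-0.19 ± 0.21). Erg and Wnt9a were below the filter here but passed it on the B array. There Erg had the hindlimb below (-0.37 ± 0.13), as did 6.14% of all tested probe sets, and Wnt9a overlapped (-0.08 ± 0.32). On the A array the joint sums over 5 genes ran from 1708.4 to 1949.1 (forelimb) and from 1046.0 to 1315.5 (hindlimb). Sums also parted with the hindlimb below for surface ectoderm (4054.6 to 5184.0 and 3353.6 to 3944.2; 3 of 8 genes below and 1 above, with a median difference of 0.00 and the sum carried by Krt14 and Krt5), endothelium (2071.1 to 2145.8 and 1898.8 to 2035.2; 1 of 6 below) and macrophages (1828.2 to 2050.3 and 1720.4 to 1824.0; 1 of 7 below). Erythroid sums parted the other way (28019.2 to 30828.8 and 31439.5 to 34962.6; 1 of 4 above).

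For cartilage 3 of 6 tested genes had the hindlimb below (sums of 9065.1 to 10266.5 and 7587.8 to 9778.6), and for tendon and connective tissue 3 of 6 below and 1 above (6077.6 to 7552.1 and 5778.8 to 6721.3). For muscle it was 1 of 4 below (1258.5 to 1728.8 and 979.0 to 1282.9), and for nerve 1 of 4 below and 1 above (1218.6 to 1294.1 and 957.7 to 1306.8). The nerve gene above was Nefm, with 64.7 to 77.8 in forelimb and 103.5 to 160.5 in hindlimb. Only the hindlimb arrays brought Nefm over the signal filter, so its direction was fixed by the filter. Of these lists Matn1 and Cnmd (cartilage), Tnmd (tendon), Pax3, Pax7 and Myf5 (muscle), Tie1 (endothelium), C1qa (macrophage), Hba-a1 (erythroid) and Tubb3 (nerve) were below the filter. As a sign of RNA quality, Gapdh signal from the 3′ end over that from the 5′ end had log2 values of -0.24 to -0.08 (forelimb) and -0.30 to -0.26 (hindlimb) in A arrays. In B arrays they were -0.25 to -0.07 and -0.17 to -0.11. For beta-actin they were 0.12 to 0.26 and 0.22 to 0.27 in A arrays, and 0.24 to 0.31 and 0.21 to 0.32 in B arrays. The part of these tissues and of RNA quality in the values of Htra1, Pappa, Igfbp2 and Igfbp4 was not tested. In such bulk RNA, fewer cells of a type and less RNA per cell cannot be told apart.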

How the data were processed

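The authors deposited intensities, namely linear MAS5.0 signals per the labels, which for sample 11 on the A array leave MAS5.0 out. The software version is not given in the sources used here. The trimmed mean (2% from each end) of the deposited signals was 350.1 on all A arrays and 70.0 on all B arrays. Each array was scaled to 500, on average by factors of 1.43 (A) and 7.14 (B), so the filter is laxer for B signals. The limbs were compared within a design with lmFit and eBayes (trend on) of limma 3.58.1 under R 4.3.3, by two-sided tests adjusted over all tested probe sets (Benjamini-Hochberg, threshold 0.05), on log2(signal + 32) of the deposited values so scaled, after leaving out the 64 control probe sets of each design. Gene symbols came from the platform annotation, updated through gene identifiers with RefSeq's GRCm38.p6 table, which also gave gene order; promoters came from RefSeq's table of the same build. Figures used matplotlib 3.10.9.

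The fit was tested on simulated data. Set changes of 1.5-fold were called for 24% (A) and 2% (B) of the changed probe sets. Changes of 2.0-fold were called for 76% and 28%. The simulation had 161 (A) and 91 (B) calls in all, against 5 and 2 in the data, so these shares may not carry over. The number of arrays limits the precision, with a median SE of 0.16 (A) and 0.23 (B), and as no source says that samples are separate animals, the spread behind each p-value may be technical. The members and lists were chosen with earlier results of these data known. Named were all member probe sets and, of the further pathway genes, the 3 of smallest p per group and design, beside others given to complete a group after their values were seen. The alternatives were other pseudocounts, filters and scalings, array weights, a fit without the trend, consecutive sample numbers as a block, and leaving out each sample.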

Additional observations from a re-analysis of the deposited data

How the results depend on the processing

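Of the 25 tested member differences, 12 kept their sign in every alternative that gave a value, 11 of them negative: both of Htra1, 2 of 3 of Pappa, Igfbp2, 5 of 6 of Igfbp4 and Igf1 1452014_a_at; the positive was Igf1r 1446303_at. Htra1 1438251_x_at and Pappa 1427633_a_at met the signal filter through their forelimb signals, so their kept signs carry that limit. In 22 of 25 no alternative moved the difference by more than the SD between samples. The number of members with an adjusted p under 0.05 on the A array was 1 with array weights and 0 in the other alternatives; the 1 was Htra1 1438251_x_at, whose direction the signal filter fixed, so it supports nothing. On the B array the number was 0 throughout. The further pathway genes gave 0 throughout on both arrays. Over all probe sets the 5 calls of the A array became 1 with no filter, 14 with array weights, 8 with consecutive sample numbers as a block and 3 to 9 with a sample left out (9 without hindlimb 12, 3 without any other). The 2 calls of the B array became 1 with no filter, 0 without the trend, 4 with the block and 1 to 4 with a sample left out (4 without hindlimb 12, 2 without forelimb 13, 1 without any other). The cause was not tested. The limbs carry different sample numbers, and the labels do not say whether consecutive numbers pair the samples. A filter at 200, or values as deposited, left out Htra1 1438251_x_at, so those settings give it no value. A pseudocount of 100 moved Htra1 1438251_x_at to -0.89, Htra1 1416749_at to -0.32 and Pappa 1427633_a_at to -0.48.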

Other observations

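On Pappa 1432592_at of the B array the signal rose with the sample number in each limb. It was 102.8, 191.4 and 337.8 in forelimb 11, 13 and 25, and 45.7, 165.7 and 337.8 in hindlimb 12, 14 and 26. This order was noticed after the values were seen, and the share of all probe sets that have it was not computed. The other Pappa probe set of the same arrays, 1432591_at, did not have this order, with 504.2, 345.7 and 403.5 in forelimb and 320.7, 254.3 and 272.1 in hindlimb. The labels do not say that consecutive numbers share a litter or a day.

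In the RefSeq gene order Igfbp2 and Igfbp5 are neighbours among protein-coding genes, and so are Igfbp3 and Igfbp1. The limbs parted on the probe set of Igfbp2 (-0.35) and overlapped on both of Igfbp5 (-0.10 and 0.17), while Igfbp3 lay near 0 (0.05 and -0.01) and Igfbp1 below the filter. No difference between neighbours was tested.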
